A study of Rattus norvegicus with 6 samples.

Results

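The genes described here are the receptors and ligands of 3 axon guidance systems, namely the Eph receptors and ephrins, the Slit proteins and their Robo receptors, and the netrins with the receptors Dcc, Neo1 and Unc5. They were chosen by gene name from a list of 36 genes, each represented by its brightest probe set (a group of array probes read as 1 value) among those that the platform annotation assigns to exactly 1 gene. Such a probe set named 29 of the 36 genes, out of 14506 genes in all, and each of the 29 had a single one. The other 7, Epha4, Epha6, Ephb4, Efna3, Slit2, Ntn4 and Unc5d, were not analysed here. The study exposed cultured rat cortical neurons to the complement protein C1q, the recognition subunit that starts the classical complement pathway, and measured transcripts on 6 arrays. Cortical neurons came from Sprague-Dawley embryos of day 18 and had spent 3 days in culture, and both groups were kept in NB-N2 medium. In the C1q group, 3 arrays held RNA of neurons stimulated with C1q at 10 nM for 3 h, and in the untreated group 3 arrays held RNA of neurons without it. The comparison asks whether a short C1q exposure altered the transcript levels of these guidance genes.

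As background, growing axons steer by reading ligands on other cells or in the surrounding matrix through receptors on the growth cone. Ephrin-A ligands are held in the membrane by a lipid anchor and bind mainly EphA receptors, whereas ephrin-B ligands span the membrane and bind mainly EphB receptors, and signals pass into both of the touching cells. Slits are secreted and usually repel axons through Robo receptors. Netrin-1 attracts axons that carry Dcc and repels those that also use an Unc5 receptor. In the developing cortex these systems act in axon projection, cell migration, dendrite growth and synapse formation.

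None of the 24 guidance genes tested was called as changed by limma after C1q, at an adjusted p (Benjamini-Hochberg) under 0.05. Over all 17529 probe sets tested the share called was 0%. The adjusted p of every tested guidance gene was 0.9999, and 0 of the 24 had an unadjusted p under 0.05, against 2.49% of all probe sets tested. With 1 probe set per gene, as for the guidance genes, 66 of the 9652 genes tested had an unadjusted limma p under 0.05. C1q and untreated arrays overlapped for every one of the 29 measured genes. The count without overlap was therefore 0 of 24, beside 5.72% of all probe sets tested and 479 of the 9652 genes tested. The log2 fold changes, C1q over untreated, ran from -0.096 for Ephb6 to 0.065 for Epha8, with a median of -0.012 beside a median of -0.019 over all probe sets tested. Means were higher after C1q for 9 (37.5%) and lower for 15 of the 24 genes, beside 36.7% higher over all probe sets tested. The standard errors of the log2 fold changes lay between 0.042 and 0.106. No 95% interval of the 24 reached beyond a 1.23-fold difference in either direction, and the widest bound was that of Epha8.

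**Figure D1:**
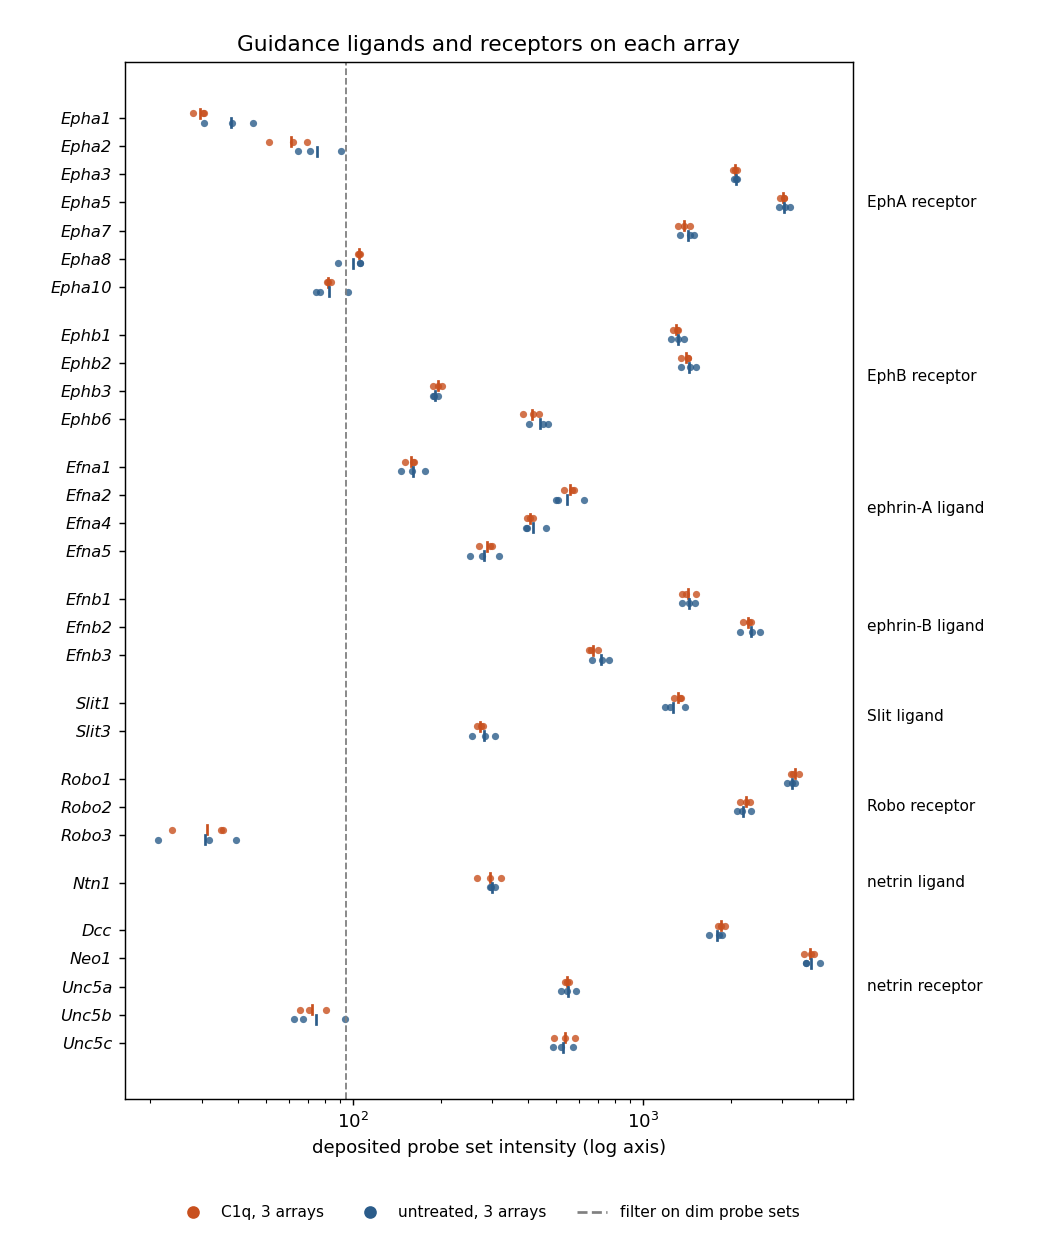
Deposited probe set intensity, on a log axis, of the 29 measured guidance genes, ordered by class down the page. Points are single arrays (C1q above, untreated below), short bars are means of 3 arrays, and the dashed line is the filter at an intensity of 94.4. The points of both groups overlap for every gene, and the means of both groups lie left of the line for 5 genes.

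Values are deposited intensities on a linear scale, and fold changes are on the log2(intensity + 16) scale, which understates the change of dim genes. Probe sets differ in how well they bind their transcript, so an intensity does not rank one gene's RNA against another's. A gene was tested where its mean over all 6 arrays was among the highest 60% of probe sets, which corresponds to an intensity of 94.4. Detection calls were not used here, and the share of background in an intensity is unknown. Array medians ran from 147 to 155. Log2 values correlated between arrays, across tested probe sets, at 0.989 to 0.996. The 9 pan-neuronal markers listed, such as Tubb3 and Dcx, had mean intensities between 484 and 8601 in untreated neurons, and the 5 measured markers of excitatory cortical neurons lay between 348 and 6028. The 8 measured markers of inhibitory neurons lay between 682 and 5112. The 8 microglial markers lay between 32.6 and 117 and the 5 endothelial markers between 28.0 and 126, whereas the 6 radial glia markers lay between 367 and 3010. The 7 astrocyte markers lay between 51.7 and 1606, and the 6 measured oligodendrocyte lineage markers between 72.0 and 268.5. Mural and meningeal markers (6) lay between 12.1 and 189, and the 2 measured blood markers, Alas2 and Hbb, at 140 and 970. How much of each guidance transcript came from which cell type was not tested, and in bulk RNA fewer cells of a type and less RNA per cell cannot be told apart.

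The untreated arrays spread more than the C1q arrays for most guidance genes. The coefficient of variation was larger among untreated arrays for 19 of the 24 tested genes, with a median of 3.25% among C1q arrays and 6.33% among untreated arrays. It was not computed over all probe sets, so whether this spread is particular to guidance genes is unknown. Each tested gene was set against its own mean over the 6 arrays. The median deviation of the 24 genes was 0.007, 0.018 and -0.044 on the log2 scale on C1q arrays 1 to 3, against 0.088, -0.061 and -0.003 on untreated arrays 1 to 3. Over all probe sets tested it was -0.007, 0.011 and -0.029 on C1q arrays, against 0.055, -0.029 and 0.005 on untreated arrays. Untreated array 1 was the highest of its group for 18 of the 24 genes, beside 55.2% of all probe sets tested. Untreated array 2 was the lowest of its group for 15 of the 24, beside 52.9% of all probe sets tested. Without untreated array 1, means were higher after C1q for 17 and lower for 7 of the 24 genes, and the median of their log2 fold changes was 0.023, beside 50.3% higher and a median of 0.0004 over all probe sets tested. Without untreated array 2 they were higher for 8 and lower for 16, at a median of -0.024, beside 31.1% and -0.035 over all probe sets. Without C1q array 3 they were higher for 13 and lower for 11, at a median of 0.009, beside 43.6% and -0.009 over all probe sets. No guidance gene was called in any of these cases, and the sign of the median changed without untreated array 1 or C1q array 3.

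**Figure D2:**
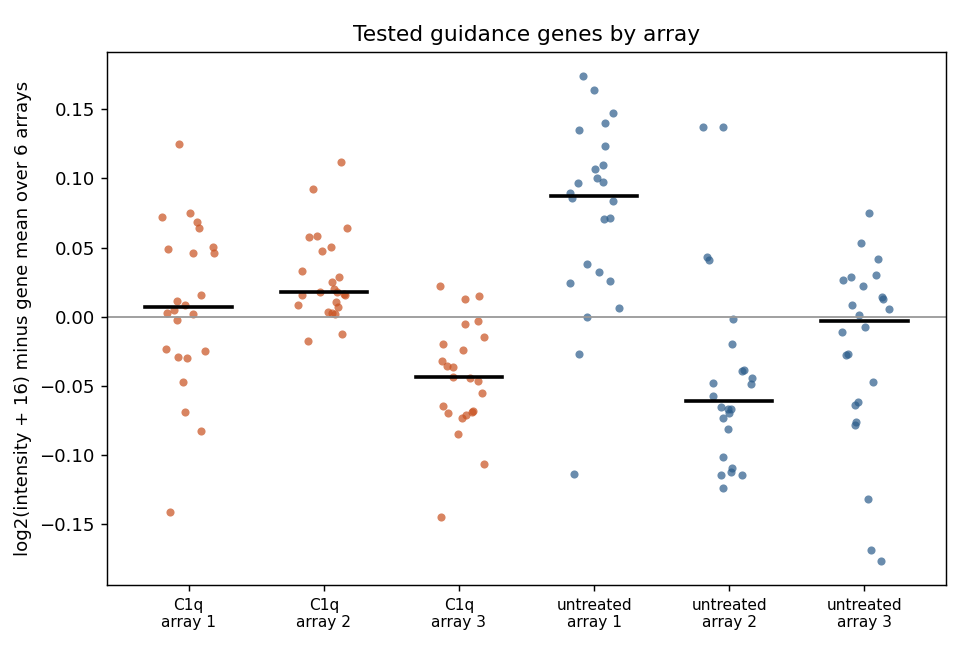
Log2(intensity + 16) of each of the 24 tested guidance genes minus the gene's mean over the 6 arrays, by array. Points are genes, black bars are medians, C1q arrays stand left and untreated arrays right. Untreated array 1 has the highest median, 0.088, and untreated array 2 the lowest, -0.061.

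EphA receptors, the main partners of the ephrin-A ligands, gave 7 measured genes, of which 4 were tested. Epha5, a receptor of forebrain neurons, had intensities of 3053, 3049 and 2966 on C1q arrays 1 to 3, against 3197, 2923 and 3069 on untreated arrays 1 to 3. All C1q arrays lay within the range of the untreated arrays, and the log2 fold change was -0.018 (95% interval -0.12 to 0.081). Epha7 read 1378, 1449 and 1321 on C1q arrays and 1493, 1335 and 1443 on untreated arrays. Its lowest value was on C1q array 3 and its highest on untreated array 1, and the log2 fold change was -0.041 (95% interval -0.16 to 0.082). Epha3 had the lowest coefficient of variation of the 24 among untreated arrays, 1.59%, with means of 2068 ± 28.0 after C1q and 2079 ± 32.9 in untreated neurons (SD, n = 3 each). Its log2 fold change was -0.0075, and the 95% interval, -0.099 to 0.085, was the narrowest of the 24.

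Epha8 lay just inside the filter, at 106, 104 and 104 on C1q arrays and 105, 105 and 88.5 on untreated arrays. The C1q arrays lay close together, and untreated array 3 alone was low, below the filter intensity. The log2 fold change of 0.065 (95% interval -0.17 to 0.30) was the highest of the 24, and without untreated array 3 it was -0.007. Epha1, Epha2 and Epha10 lay below the filter. Epha10, whose kinase domain lacks activity, read 83.7, 80.9 and 81.7 on C1q arrays and 74.7, 96.3 and 76.6 on untreated arrays, just outside the filter, with all C1q arrays inside the untreated range. Epha2, known mostly from epithelial cells, read 62.0, 69.3 and 51.1 on C1q arrays and 64.3, 70.8 and 90.6 on untreated arrays, with overlapping groups. Epha1 read 27.9, 30.4 and 30.6 on C1q arrays and 30.5, 45.0 and 38.3 on untreated arrays, which overlapped as well. In a fit without the filter, the log2 fold changes were -0.24 for Epha2 and -0.23 for Epha1, with intervals of -0.55 to 0.065 and -0.52 to 0.057. Epha10, Robo3 and Unc5b, the other genes below the filter, had log2 fold changes of 0.0009, 0.029 and -0.027 in that fit. At such low intensities the spread was larger, with coefficients of variation up to 21.2% among C1q arrays and 29.6% among untreated arrays for the 5 genes below the filter.

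Promoter sequence, which played no part in choosing the genes, was described by its CpG content, with no test. RefSeq promoters of the GRCr8 assembly, from 250 bases before to 50 after the start, were matched for 25 of the 29 genes, with 26 promoters because Robo1 had a pair. They held a median of 19 CpG dinucleotides, beside 7 over all 33469 promoters of that table. Of the 26 promoters, 13 held more than 19 CpGs, which 24.2% of all promoters did. Tested genes had a median of 20 CpGs (21 promoters), and the 5 genes below the filter had a median of 15, with ranges of 8 to 51 and 7 to 37. The tested genes with the fewest and the most CpGs, Epha5 and Epha8, are printed to show this span, 5′ to 3′ with each CpG in capitals. Epha5 had 8 CpGs and a GC content of 44.7% at chr14:24007872-24008171 on the plus strand of GRCr8, and Epha8 had 51 CpGs and 81.0% at chr5:154476917-154477216 on the minus strand.
Epha5: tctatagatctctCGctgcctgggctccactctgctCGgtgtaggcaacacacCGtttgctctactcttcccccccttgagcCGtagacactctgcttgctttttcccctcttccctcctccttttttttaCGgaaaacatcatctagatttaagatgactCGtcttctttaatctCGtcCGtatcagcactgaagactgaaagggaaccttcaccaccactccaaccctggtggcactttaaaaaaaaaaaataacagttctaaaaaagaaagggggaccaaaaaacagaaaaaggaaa
Epha8: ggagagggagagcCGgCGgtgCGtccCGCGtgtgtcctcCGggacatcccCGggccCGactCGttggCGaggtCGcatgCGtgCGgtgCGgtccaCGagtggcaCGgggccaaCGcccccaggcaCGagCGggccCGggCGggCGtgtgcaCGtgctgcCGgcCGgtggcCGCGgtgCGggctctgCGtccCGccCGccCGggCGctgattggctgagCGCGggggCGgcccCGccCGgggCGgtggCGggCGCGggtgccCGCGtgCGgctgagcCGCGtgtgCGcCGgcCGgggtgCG
The cAMP response element TGACGTCA, which reads the same on both strands, was found in 1 of the 26 promoters, that of Epha2, and in 1.83% of all promoters. The GC box GGGCGG, searched on both strands, was found in 13 of the 26, Epha8 included, and in 33.1% of all promoters. Both motifs contain a CpG, so neither count is separate from the CpG content. A match of letters is a description of this window only.

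EphB receptors, the main partners of the ephrin-B ligands, gave 4 measured genes, all tested, and no change was called. Ephb2, a receptor known for its part in glutamate synapse formation, had intensities of 1426, 1419.6 and 1349.6 on C1q arrays and 1517, 1353 and 1446 on untreated arrays. Its lowest value was on C1q array 3, close to untreated array 2, and the log2 fold change was -0.039 (95% interval -0.16 to 0.078). Ephb6, a member without kinase activity, read 385, 436 and 415 on C1q arrays and 452, 469.9 and 403 on untreated arrays. Untreated array 3 lay between C1q arrays 1 and 3, so the groups overlapped. The log2 fold change of Ephb6 was -0.096 (95% interval -0.26 to 0.072), the lowest of the 24. Ephb1 averaged 1294 ± 26.1 after C1q and 1315 ± 70.3 in untreated neurons (SD, n = 3 each). Ephb3 averaged 195 ± 6.41 after C1q and 191 ± 4.70 in untreated neurons (SD, n = 3 each), with a log2 fold change of 0.029. Ephb2 and Epha8 lie near each other on chromosome 5 of GRCr8, with 3 protein-coding genes between them.

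Ephrin-A ligands gave 4 measured genes, all tested, with 2 means higher and 2 lower after C1q. Efna2, a ligand that with Efna5 maps retinal axons in the mouse, had intensities of 569.7, 576 and 533 on C1q arrays and 623, 508 and 501 on untreated arrays. Untreated array 1 was the highest and untreated arrays 2 and 3 the lowest of the 6, so that all C1q arrays lay within the untreated range. The log2 fold change was 0.047 (95% interval -0.13 to 0.23). It was 0.15 without untreated array 1 and -0.007 without untreated array 3. Efna5 read 301, 296 and 272 on C1q arrays and 317, 277 and 252 on untreated arrays, with the same order among the untreated arrays as for Efna2. Its log2 fold change was 0.040 (95% interval -0.16 to 0.24). When limma weighted the arrays, untreated array 3, where Efna5 was lowest, had a weight of 5.51 against 0.335 to 1.81 for the others. The Efna5 log2 fold change was then 0.18, at an adjusted limma p of 0.146. Without untreated array 3, and with no weights, it was -0.034, so its sign changed as for Efna2. Efna4 averaged 407 ± 8.76 after C1q and 418 ± 39.1 in untreated neurons, and Efna1 averaged 158 ± 6.46 after C1q and 161 ± 15.4 in untreated neurons (SD, n = 3 each). Efna1, Efna3 and Efna4 are direct neighbours on chromosome 2 of GRCr8, with 0 protein-coding genes between them. The log2 fold changes of the measured pair were -0.022 for Efna1 and -0.034 for Efna4.

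Ephrin-B ligands, which also signal back into the cell that carries them, gave 3 genes, all tested, with 3 means lower after C1q. Efnb3, a midline barrier for corticospinal axons in the mouse, had intensities of 652, 696 and 658 on C1q arrays and 759.8, 667 and 717 on untreated arrays. Untreated array 2 lay between C1q arrays 2 and 3, and the other untreated arrays lay above all C1q arrays. The log2 fold change of Efnb3 was -0.093 (95% interval -0.23 to 0.043), and its unadjusted limma p of 0.162 was the smallest of the 24. Without untreated array 2 the log2 fold change was -0.14 at an adjusted limma p of 0.527, beside a median log2 fold change of -0.035 over all probe sets tested. Efnb2, which neurons and arterial endothelium both express, read 2319.5, 2345 and 2208 on C1q arrays and 2523, 2158 and 2359 on untreated arrays. All C1q arrays lay within the untreated range, and the log2 fold change was -0.032 (95% interval -0.16 to 0.094). Efnb1 averaged 1428 ± 85.5 after C1q and 1432 ± 74.4 in untreated neurons (SD, n = 3 each), with a log2 fold change of -0.0052, the value nearest to 0 among the tested genes. After median centring 1 of the 3 ephrin-B means was higher, that of Efnb1, and likewise with quantile normalization.

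Slit ligands gave 2 measured genes, both tested. Slit1, a Slit of the nervous system, had intensities of 1339, 1346 and 1271 on C1q arrays and 1387, 1185 and 1238 on untreated arrays. All C1q arrays lay within the untreated range, between untreated array 1 and the other 2 untreated arrays, and Slit1 had a log2 fold change of 0.056 (95% interval -0.077 to 0.19). Slit3, which is also made outside the nervous system, averaged 274 ± 6.80 after C1q and 283 ± 26.2 in untreated neurons (SD, n = 3 each), with a log2 fold change of -0.037. The C1q arrays of Slit3 again lay within the untreated range.

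Robo receptors gave 3 measured genes, of which 2 were tested, with means higher after C1q for both. Robo1, which receives Slit signals on cortical axons, had intensities of 3442, 3288 and 3237 on C1q arrays and 3337, 3136 and 3257 on untreated arrays. C1q array 1 was the highest of the 6, and the other C1q arrays lay within the untreated range. Robo1 had a log2 fold change of 0.035 (95% interval -0.063 to 0.13). Robo2, a neighbour of Robo1 on chromosome 11 of GRCr8 with 1 protein-coding gene between them, averaged 2249 ± 87.1 after C1q and 2211 ± 120.0 in untreated neurons (SD, n = 3 each), with a log2 fold change of 0.026. Robo3, known from commissural neurons of the hindbrain and spinal cord in the mouse, lay below the filter. It read 23.7, 35.0 and 35.6 on C1q arrays and 21.2, 39.4 and 31.7 on untreated arrays, with the lowest value of each group on array 1.

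Netrin-1 was the only measured netrin among the 29 genes. Ntn1 had intensities of 297, 322 and 267 on C1q arrays and 297, 307 and 296 on untreated arrays. Here the C1q arrays were the more spread group, at coefficients of variation of 9.32% after C1q and 2.02% in untreated neurons, and they lay on both sides of the untreated values. Ntn1 had a log2 fold change of -0.024 (95% interval -0.20 to 0.15).

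Netrin receptors gave 5 measured genes, of which 4 were tested, with 2 means higher and 2 lower after C1q. Dcc, the receptor behind attraction to netrin-1, had intensities of 1916, 1844 and 1804 on C1q arrays and 1864, 1688 and 1824 on untreated arrays. C1q array 1 was the highest and untreated array 2 the lowest of the 6, and the remaining arrays overlapped. Dcc had a log2 fold change of 0.050 (95% interval -0.061 to 0.16). Neo1, the Dcc relative neogenin, which also binds repulsive guidance molecules, read 3876, 3772 and 3573 on C1q arrays and 4053, 3641 and 3633 on untreated arrays. Untreated array 1 was the highest, C1q array 3 was the lowest, and the log2 fold change was -0.012 (95% interval -0.13 to 0.10). Unc5a and Unc5c, receptors that turn the netrin response into repulsion, averaged 546 ± 8.87 and 536 ± 44.1 after C1q, against 551 ± 34.6 and 527 ± 42.2 in untreated neurons (SD, n = 3 each). Their log2 fold changes were -0.012 and 0.023. Unc5b, which is also known from blood vessels, lay below the filter, at 72.2 ± 7.47 after C1q and 74.7 ± 16.9 in untreated neurons (SD, n = 3 each).

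**Figure D3:**
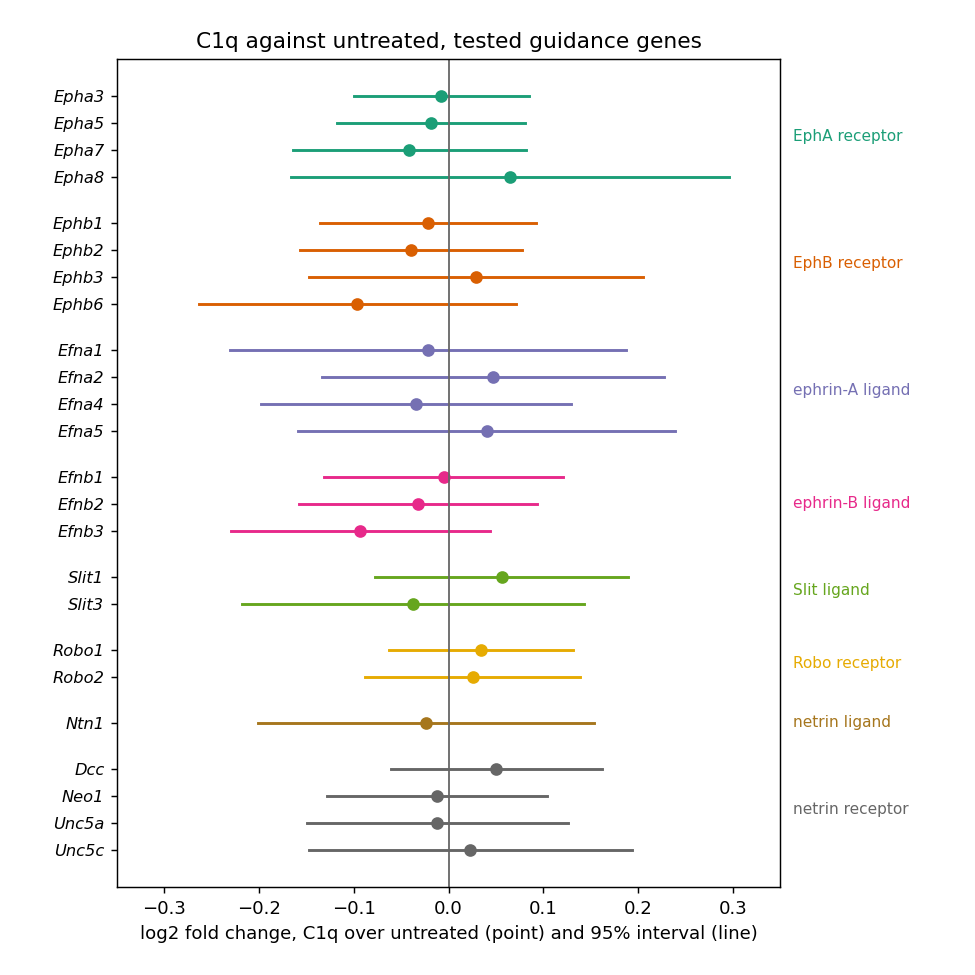
Log2 fold change, C1q over untreated, of the 24 tested guidance genes (points) with 95% limma intervals (lines), by class down the page. Every interval contains 0, and the points lie between -0.096 (Ephb6) and 0.065 (Epha8).

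The direction of the small differences depended on how the arrays were scaled. With quantile normalization 14 means were higher and 10 lower, and with median centring 17 were higher and 7 lower, and the log2 fold changes had medians of 0.008 and 0.015. Over all probe sets tested, 50.8% and 55.4% were higher in these fits, and the medians were 0.001 and 0.008. Over 17 alternatives, 7 of the 24 genes had 1 sign throughout. Dcc, Robo1 and Slit1 had higher means after C1q in each, with log2 fold changes of 0.008 to 0.079, 0.009 to 0.061 and 0.009 to 0.121. Efnb3, Ephb6, Epha7 and Ephb2 had lower means in each, with log2 fold changes of -0.141 to -0.049, -0.158 to -0.016, -0.086 to -0.007 and -0.082 to -0.0006. These alternatives reuse the same 6 arrays, and none of the 7 genes was called in any of them. Changes of filter, variance model, replicate block and averaging of probe sets cannot alter these fold changes. Agreement in sign across those alternatives was therefore fixed in advance. How many of all probe sets tested had 1 sign throughout was not counted.

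**Figure D4:**
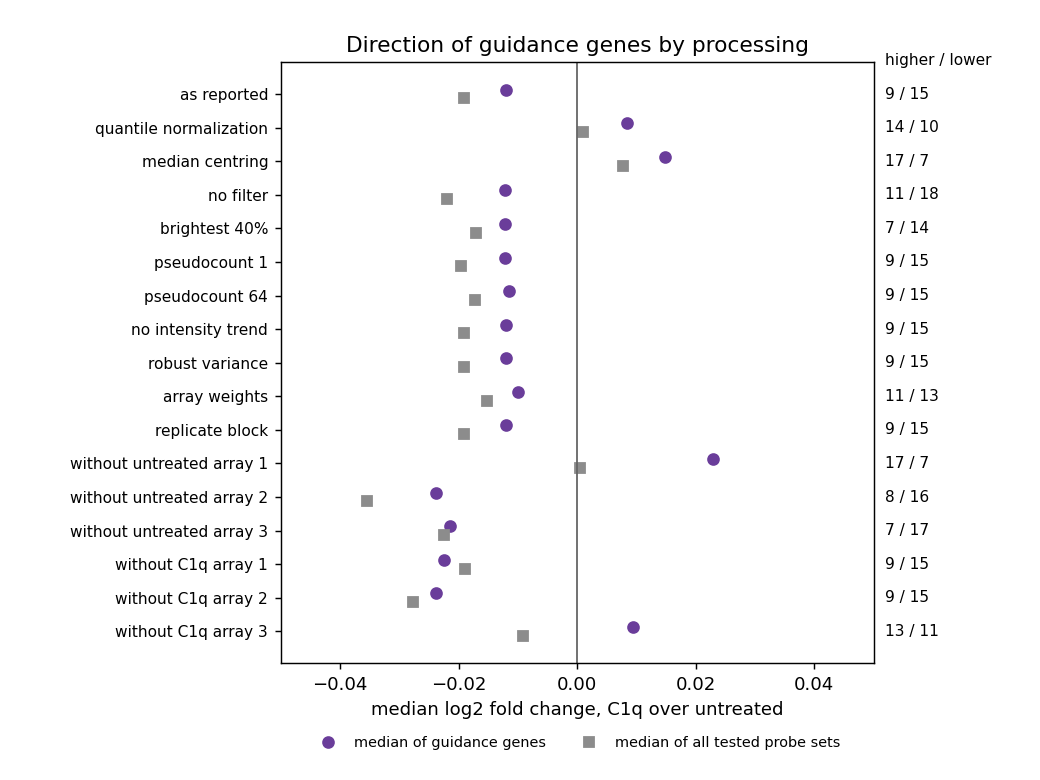
Median log2 fold change, C1q over untreated, of the guidance genes (circles) and of all tested probe sets (squares) under each processing choice, with the number of guidance genes of higher and lower mean at the right. Medians of the guidance genes run from -0.024 to 0.023 and change sign with quantile normalization, with median centring and without untreated array 1 or C1q array 3.

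Transcripts of genes that work with these guidance systems, here called signalling partners, were measured as well, while their proteins were not. The 4 lists held 79 genes, of which 69 were measured and 67 tested. None of the 67 was called, and their adjusted p was 0.9999 or more (limma). Higher means numbered 20 and lower means 47, beside the 36.7% higher over all probe sets. Their log2 fold changes ran from -0.082 to 0.082, with a median of -0.013. With quantile normalization 39 were higher and 28 lower, and with median centring 46 and 21.

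Of the 25 tested partners of Eph receptors and ephrins, 10 means were higher and 15 lower after C1q. Tiam1, an exchange factor for Rac, averaged 649.7 ± 7.20 after C1q and 621 ± 45.7 in untreated neurons (SD, n = 3 each). The tyrosine kinase gene Src and the adaptor gene Nck1 had log2 fold changes of -0.053 and 0.082. Of 12 tested Slit-Robo partners 5 means were higher and 7 lower. Srgap2, a GTPase-activating protein that binds Robo1, averaged 1825 ± 49.3 after C1q and 1762 ± 55.2 in untreated neurons (SD, n = 3 each). Ndfip1, an adaptor of ubiquitin ligases, and Sos1, a Ras and Rac exchange factor, had log2 fold changes of -0.053 and -0.041. Of 17 tested netrin and Dcc partners 4 means were higher and 13 lower. Pitpna, a phosphatidylinositol transfer protein, averaged 3239 ± 84.7 after C1q and 3378 ± 105 in untreated neurons (SD, n = 3 each), and its unadjusted limma p of 0.193 was the smallest of all 67. Trim67, a ubiquitin ligase, and the netrin gene Ntn3 had log2 fold changes of 0.061 and -0.070.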

How the data were processed

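Transcripts were measured on 6 one-colour Affymetrix arrays of biotin-labelled cRNA, 3 of C1q-treated and 3 of untreated neurons, per the labels' protocols. The deposited value table holds 1 intensity per probe set and array, for 29215 probe sets. How the authors summarised and normalized the probes was not given in the sources used here. Array medians differed by at most 0.070 on the log2 scale, so values were used as deposited. Platform annotation named exactly 1 gene for 15310 probe sets. Log2(intensity + 16) values of the 17529 probe sets with the highest mean over all arrays (60%) were fitted in limma, version 3.58.1 (R version 4.3.3), by lmFit and then eBayes, its prior variance following the intensity, a procedure tested on simulated data. The Benjamini-Hochberg adjustment covered all probe sets tested, and calls use an adjusted p under 0.05. The labels do not say whether arrays stand for separate cultures, so the spread behind the p-values is that of these 6 arrays and may be technical. The number of arrays limits the precision. Genes and lists were chosen with earlier results of these data known. Under the rule for named genes, those of highest intensity or smallest unadjusted p in their class are described in full, and from 3 of the 4 signalling lists the 3 of smallest p; the other list is not reported here beyond the counts over all lists. Values by array of Efna5, Epha8, Epha1, Epha2, Epha10 and Robo3 were added after their values were seen, outside that rule. Alternatives covered scaling, filter, pseudocount, variance model, array weights, the replicate block, leaving out arrays and averaging probe sets.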

Additional observations from a re-analysis of the deposited data

How the results depend on the processing

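No guidance gene and no signalling partner was called under any of the alternatives run. Over all probe sets, weighting the arrays gave 130 higher and 317 lower limma calls, against 0 in the reported fit. With the replicate block the calls were 9 higher and 0 lower, and without the filter 0 higher and 1 lower. Leaving out each array gave 0 to 28 higher and 0 to 10 lower calls, all of them without untreated array 2. Array weights were 1.81, 0.883 and 0.939 for C1q arrays 1 to 3 and 0.362, 0.335 and 5.51 for untreated arrays 1 to 3. Guidance genes with higher means numbered 9 of 24, against 14 with quantile normalization, 17 with median centring and 7 to 17 when each array was left out, beside 36.7%, 50.8%, 55.4% and 31.1% to 50.3% of all probe sets tested. For signalling partners these counts were 20 of 67, 39, 46 and 11 to 49, and 32 with array weights. The median log2 fold change lay between -0.024 and 0.023 for guidance genes and between -0.044 and 0.021 for partners when each array was left out. Deviations of same-numbered arrays correlated at 0.0141, -0.453 and -0.134, and those of arrays with unlike numbers at -0.371 to 0.452. Such correlations cannot show whether same-numbered arrays share a culture, so whether the numbers pair the samples is unknown. Of 405 fold changes of single guidance genes under 17 alternatives, 400 moved by less than the spread between replicates. The exceptions were Epha3 with quantile normalization and median centring, and Epha8, Ephb3 and Efna5 with array weights. The 400 include alternatives that cannot alter a fold change, namely those of filter, variance model, replicate block and averaging of probe sets. Signs changed for 8 of the 24 genes with median centring, and for 8 without untreated array 1. Averaging the probe sets of a gene left the guidance genes as they were, since each had 1, and no second probe set could be tried. The share of background in dim intensities is unknown, which limits what their intervals say about RNA.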
